A study of Mus musculus with 42 samples.

Results

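The response to 24 h of palmitate was examined in bone-marrow-derived macrophages (BMDM, primary mouse cells differentiated in culture), using 12 of the 42 RNA-seq libraries of the series. The members were the 3 WT and 3 KO libraries of palmitate 24 h and the 3 WT and 3 KO libraries of Control 24 h, so that 6 treated libraries stood against 6 untreated ones with genotype as a block. WT cells came from mice with intact Irf5 (interferon regulatory factor 5, a transcription factor of myeloid cells), and KO cells from mice in which a floxed Irf5 was combined with Cre driven by the myeloid Lyz2 (LysM) promoter. All donors were young adult males, and all cells were grown in medium conditioned by L929 cells. Palmitate was given at one dose as a solution in ethanol diluted into albumin. Whether Control wells received the same vehicle is not stated, so an effect of the vehicle and one of the fatty acid cannot be told apart. The 12 libraries had total counts of 3420759 to 6674765, and the 2 shallowest were both Control (3420759 in WT and 3849954 in KO). A count of 3 was worth 0.449 to 0.877 CPM (each gene's counts relative to the size of its library), which sets the level below which a gene could not be followed. In the 12 pairs within groups the chi-square per degree of freedom was 1.93 to 6.21, above what sampling noise gives, so no such pair was 1 library deposited again. The labels do not say whether libraries of a group came from separate animals or cultures, so every p measures only the spread between these libraries, which may be technical.

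The labelled genotype was checked first. Irf5 had 220.1 to 233 CPM in WT palmitate and 231 to 243 CPM in WT Control libraries. In the libraries labelled KO it had 267 to 292 CPM with palmitate and 272 to 281 CPM in Control. Irf5 was thus not lower in the libraries labelled KO, which goes against the label. Lyz2, the locus that carries the Cre, did differ between the labels, with 10286.1 to 12060.0 CPM in WT libraries and 5610.6 to 6159.7 CPM in KO libraries under either treatment. The genotype is given here as labelled. The count is a total over the gene, so an excised exon was not examined. Palmitate itself did not move Irf5 past the threshold (log2 fold change -0.03, SE 0.04, adjusted p = 0.883). The cells expressed all 16 macrophage markers tested, and none of these passed the test with palmitate (median log2 fold change 0.0015).

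Palmitate is the most abundant saturated fatty acid of plasma. Macrophages take up fatty acids through CD36 and transport proteins, activate them to acyl-CoA, and then store them as triglyceride in lipid droplets, build them into membranes or burn them in mitochondria. Entry into mitochondria runs through the carnitine shuttle (CPT1A, the carnitine-acylcarnitine carrier and CPT2), after which acyl-CoA dehydrogenases and thiolases shorten the chain and electrons pass to the respiratory chain through ETF. Fatty acids are also ligands of the PPAR nuclear receptors, whose target genes encode many of these same proteins and whose binding site is a direct repeat of AGGTCA with 1 base between the copies. Saturated fatty acids are known besides for stress of the endoplasmic reticulum and for inflammatory signalling.

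Because PPAR targets led the response, promoters of genes that rose were searched for this repeat (AGGTCA, any 1 base, AGGTCA) on both strands, over the 250 bases before each start in RefSeq (GRCm38.p6), allowing 2 mismatches in the 12 fixed letters. A match was present in 3.24% of all 32851 promoter sequences and in 270 of the 8900 tested genes that had one (3.03%). Among genes higher with palmitate, 9 of the 152 with a promoter sequence had a match (5.92%), and among lower genes 4 of 79 (5.06%). An exact match was found in none of these 13 genes, against 3 of the 8900. The 3 sequences below are those of the higher genes with a match that act in lipid droplets, carnitine synthesis and fatty acid uptake, with the matching stretch in capitals. A match describes letters only and is not a site of binding.
Plin2, chr4:86670060-86670309, minus strand: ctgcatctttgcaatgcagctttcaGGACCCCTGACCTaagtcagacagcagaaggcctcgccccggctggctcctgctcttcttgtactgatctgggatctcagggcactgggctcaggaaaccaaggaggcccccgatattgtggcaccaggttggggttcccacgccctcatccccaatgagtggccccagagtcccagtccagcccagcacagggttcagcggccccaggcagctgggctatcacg
Aldh9a1, chr1:167349741-167349990, plus strand: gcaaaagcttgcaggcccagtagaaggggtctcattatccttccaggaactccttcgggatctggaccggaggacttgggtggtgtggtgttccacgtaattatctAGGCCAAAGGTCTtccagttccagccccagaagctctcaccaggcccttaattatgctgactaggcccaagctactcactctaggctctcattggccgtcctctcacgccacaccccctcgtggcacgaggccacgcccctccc
Cd36, chr5:17835897-17836146, minus strand: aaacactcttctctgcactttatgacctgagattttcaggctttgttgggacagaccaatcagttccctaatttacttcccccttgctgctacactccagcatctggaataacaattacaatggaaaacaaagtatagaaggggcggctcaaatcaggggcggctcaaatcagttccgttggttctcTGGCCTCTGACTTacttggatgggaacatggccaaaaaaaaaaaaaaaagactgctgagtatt
The Plin2 match began 225 bases before the start and read on the opposite strand to the gene, as did that of Cd36, which began 63 bases before the start used. For Cd36 that start is internal, and the window lies inside the gene as annotated in GENCODE, whose first base on the minus strand is 17888801. The Aldh9a1 match read with the gene from 144 bases before its start. Of the 12 genes of fatty acid oxidation and PPAR targets that rose, 10 had a promoter sequence and only Plin2 a match in this window, which says nothing about sites elsewhere.

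The comparison of all palmitate 24 h with all Control 24 h libraries asked which transcripts change after a day of palmitate whatever the genotype label. With the threshold set at an adjusted p of 0.05, 299 of 11624 genes passed (2.57%), 188 of them higher (1.62%) and 111 lower (0.955%). These and all later adjusted p values are Benjamini-Hochberg values of edgeR's quasi-likelihood test, and levels are CPM scaled by TMM. Most changes were small. The median log2 fold change was 0.32 among the higher and -0.32 among the lower genes, and 11 genes rose and 7 fell by at least 2-fold. The 6 palmitate and 6 Control libraries did not overlap for 172 of the 299 genes. Over all genes tested, called ones included, they did not overlap for 252 (2.17%, with 1.37% higher and 0.800% lower). The 299 were called on these same libraries, so their lack of overlap describes them and is not independent support. Leaving out each library in turn kept 154 of the 299 (106 higher, 48 lower) every time. The plot of all genes shows how far Plin2 and Angptl4 stood from the rest.

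**Figure D1:**
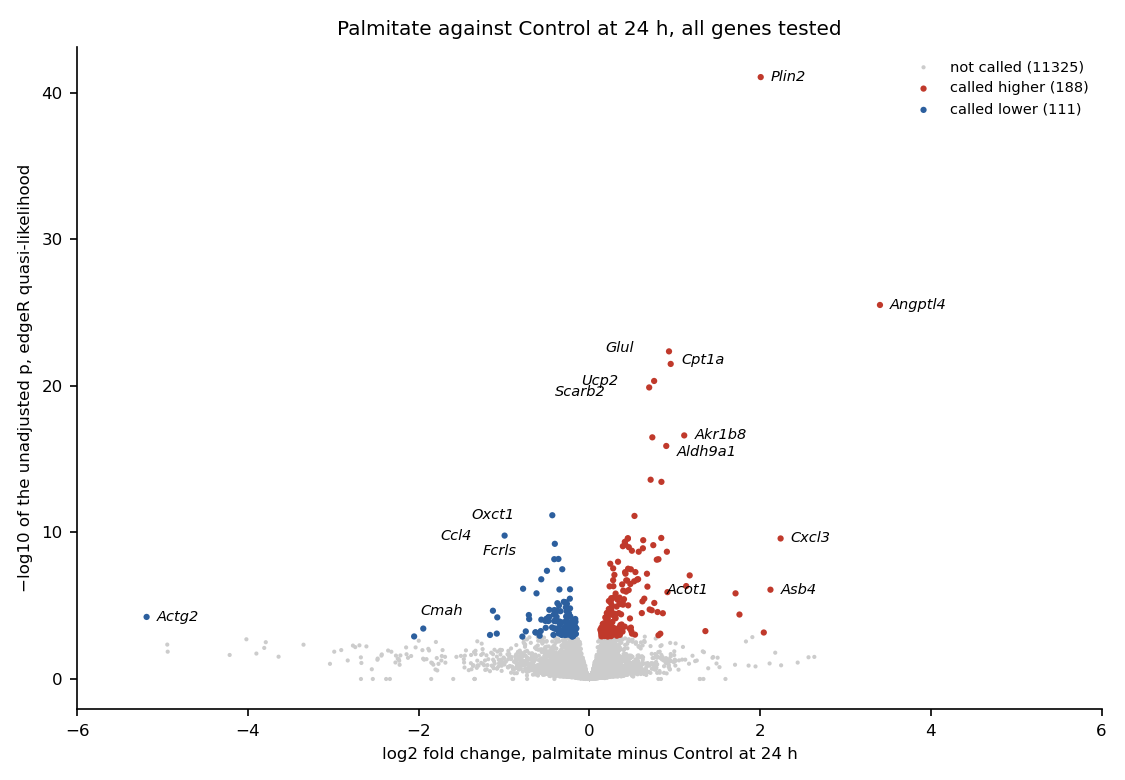
Each point is 1 of 11624 genes, with the log2 fold change of palmitate over Control at 24 h on the x axis and the −log10 of the unadjusted p on the y axis. Red points (188) were called higher, blue points (111) lower and grey points neither. Plin2 and Angptl4 stand highest, and the lower genes have no counterpart of like size and certainty.

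The transcript of a lipid droplet protein gave the clearest change. Plin2 (ENSMUSG00000028494, chromosome 4, 86648386 to 86670060, minus strand) encodes perilipin 2, the protein coat of lipid droplets in macrophages. It had 815 CPM in the lowest, 840.1 in the median and 861 in the highest palmitate library, against 202, 209.7 and 216 CPM in Control. Every treated library lay far above every Control library, and the 12 values fell into 2 tight groups. The means were 840.0 ± 17.2 and 209.1 ± 6.45 CPM (SD, n = 6 each), a 4.02-fold rise (log2 fold change 2.01, SE 0.04, adjusted p = 9.81e-38). Angptl4 (chromosome 17, 33773750 to 33781830), a secreted inhibitor of lipoprotein lipase and a classical PPAR target, had 31.7, 36.6 and 41.2 CPM with palmitate and 2.27, 3.62 and 4.21 CPM in Control. It rose by the largest factor among called genes, 10.6-fold (log2 fold change 3.40, SE 0.16, adjusted p = 1.74e-22), from a level of a few CPM that left no overlap.

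Among the lists used here, that of fatty acid oxidation and PPAR targets held the most higher genes. Lists were chosen with earlier results of these data known, so its share describes the list and is not independent support. Its higher members include Plin2, Angptl4 and Ucp2, which are not steps of oxidation. Of the 32 tested members of the list of fatty acid oxidation and PPAR targets, 12 were higher and none lower (37.5%, beside 2.57% of all genes), and 28 had a log2 fold change above 0. Their median was 0.29, beside -0.0037 for all genes tested. Cpt1a (chromosome 19, 3322334 to 3385733), the enzyme that commits fatty acids to mitochondria, had 219, 250 and 256 CPM with palmitate against 119, 128 and 134.0 CPM in Control. It rose without overlap (log2 fold change 0.95, SE 0.05, adjusted p = 9.21e-19). Slc25a20, the carrier that passes acylcarnitine through the inner membrane and is named after its values were seen, had 21.6 to 30.8 CPM against 11 to 16.8 CPM (0.81, SE 0.11, adjusted p = 2.37e-06).

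Inside mitochondria the rise covered acyl-CoA dehydrogenases, a thiolase and electron carriers, while 20 of the 32 tested members of the list were not called. The called members given here are named beyond the rule for named genes, after their values were seen. Acadvl and Acadl, the very-long-chain and long-chain acyl-CoA dehydrogenases, had log2 fold changes of 0.38 (SE 0.06) and 0.50 (SE 0.07). Acaa2, the thiolase of the last step, had 31.4 to 36.7 CPM with palmitate and 17.3 to 20.6 CPM in Control (0.84, SE 0.11, adjusted p = 1.73e-07). Etfb, a subunit of the electron transfer flavoprotein, had 39.0 to 55.2 against 31.0 to 33.3 CPM (0.54, SE 0.08). In each of these 4 genes the lowest palmitate library was above the highest Control library. Etfdh, the next carrier, had a smaller difference (0.32, SE 0.09, adjusted p = 0.0416), and leaving out any of 11 of the 12 libraries ended its call (0.29 to 0.35).

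The acyl-CoA thioesterases Acot1 and Acot2, which release free fatty acid in the cytosol and in mitochondria, also rose, and are named after their values were seen. Acot1 had 5.38 to 9.69 CPM with palmitate against 1.42 to 3.50 CPM in Control (1.71, SE 0.31, adjusted p = 0.000238), and Acot2 had 11.6 to 17.6 against 7.2 to 10.7 CPM (0.76, SE 0.15, adjusted p = 0.000876). These genes are near-identical neighbours, and how the counting split their reads is not given in the sources used here. Ucp2, an inner membrane carrier that responds to fatty acids, had 943 to 1068 CPM against 566 to 638 CPM (0.76, SE 0.05, adjusted p = 1.07e-17). Pdk4, another PPAR target, had too few counts to be tested.

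**Figure D2:**
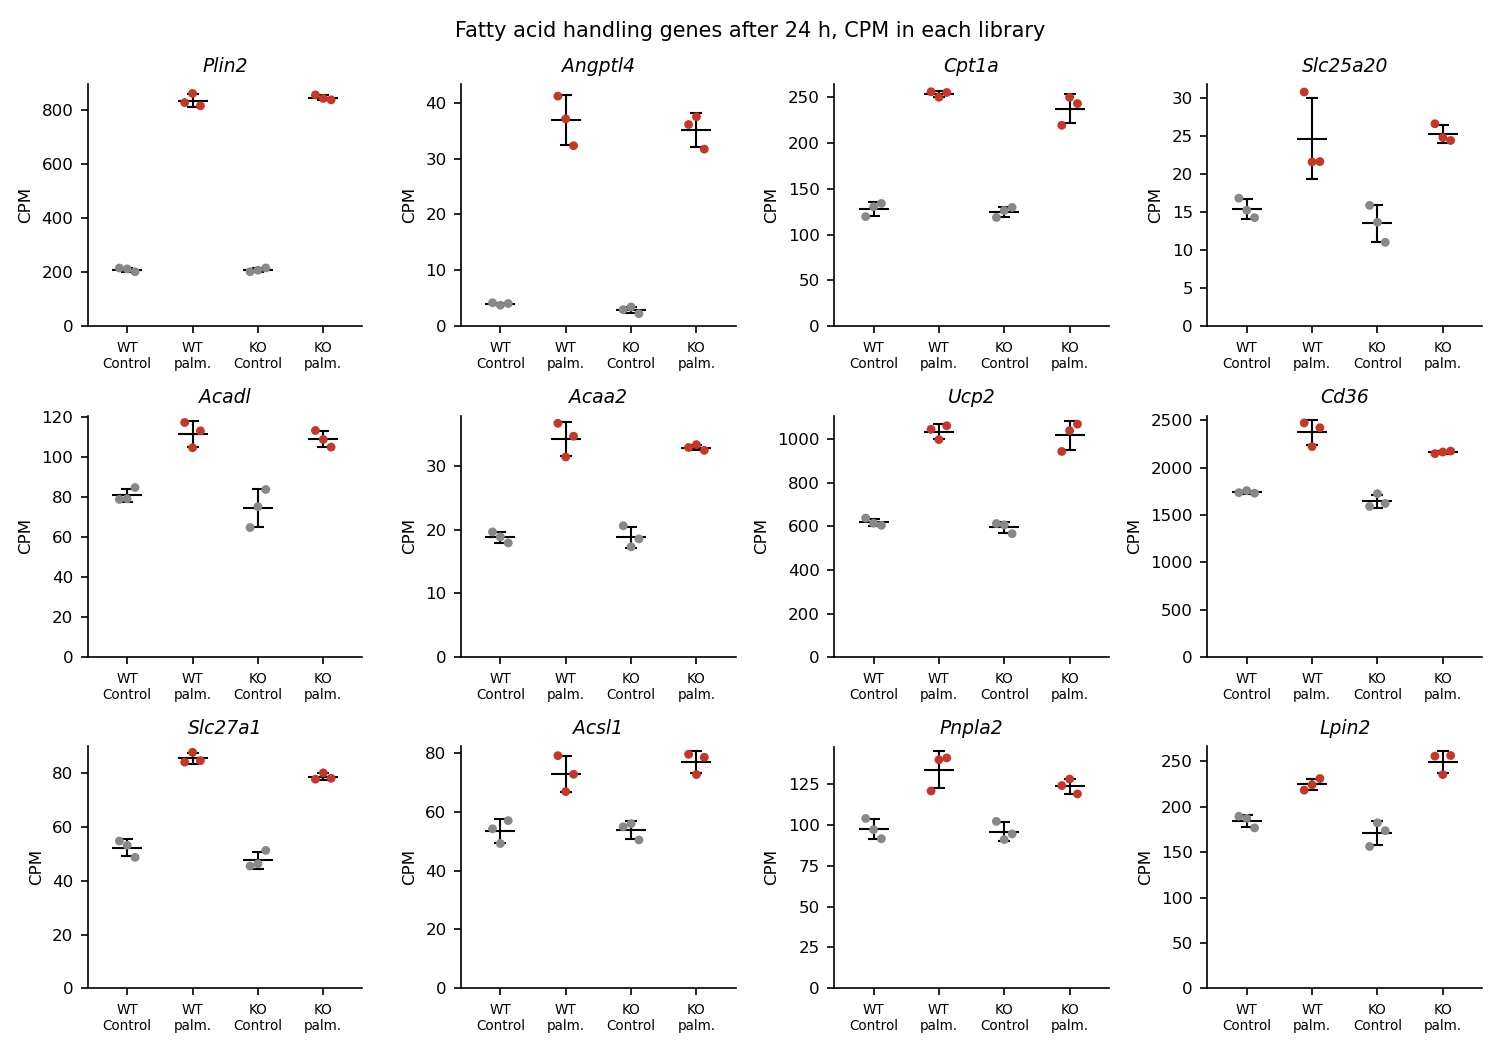
CPM (y axis, from 0) of 12 fatty acid genes in each Control (grey) and palmitate (red) library at 24 h, by genotype label, with the mean and SD of each group of 3 as black bars. In all 12 panels the 6 palmitate libraries sit above the 6 Control libraries, and Plin2 goes from about 209.1 to 840.0 CPM on average.

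Single genes of uptake, activation and lipolysis rose as well. Of 29 tested members of the list of fatty acid uptake, activation and lipid droplets, 6 were higher and none lower. This was 20.7%, beside 2.57% of all genes, and the median log2 fold change was 0.077. The 6 include Plin2, which is shared with the list above, and 23 members were not called. Cd36, the scavenger receptor that takes up fatty acids and oxidised lipoprotein, had 2146, 2197 and 2470 CPM with palmitate and 1590, 1726 and 1757 CPM in Control (0.42, SE 0.05, adjusted p = 3.36e-07). The transport protein Slc27a1 had 77.7 to 87.7 against 45.4 to 54.7 CPM (0.72, SE 0.07, adjusted p = 2.93e-11). Both receptor and transporter were higher in every treated library.

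The phosphatidate phosphatase Lpin2, which makes the diacylglycerol that becomes triglyceride, had 218 to 256 CPM with palmitate and 156 to 189.5 CPM in Control (0.41, SE 0.05, adjusted p = 2.55e-07). Acsl1, which activates fatty acids to acyl-CoA, had 66.8 to 79.5 against 49.2 to 57.0 CPM (0.48, SE 0.07, adjusted p = 9.52e-06). Pnpla2, the lipase that opens triglyceride stores, had 119 to 141 against 91.0 to 104 CPM (0.42, SE 0.06, adjusted p = 1.39e-05). Genes of storage and genes of breakdown were thus both among the 6, and none of them overlapped between the groups. Acsl1 and Pnpla2 are named after their values were seen.

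Aldh9a1, an aldehyde dehydrogenase of carnitine synthesis that was in no list, belonged to the same tier. It had 93.8 to 118 CPM with palmitate against 45.8 to 63.6 CPM in Control, without overlap (0.90, SE 0.07, adjusted p = 1.62e-13). On the side of ketone bodies, Oxct1, the enzyme that lets mitochondria use them, was the most certain of the lower genes. It had 120.2 to 131 CPM against 160.2 to 180.5 CPM (-0.44, SE 0.05, adjusted p = 6.49e-09), again without overlap. Lack of overlap was part of the rule that named Aldh9a1 and Oxct1.

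Lipid synthesis moved little. Called shares were 4.76% of the fatty acid synthesis list and 3.57% of the sterol list, beside 2.57% of all genes. Among 21 genes of fatty acid synthesis, desaturation and elongation, Fasn (fatty acid synthase) was the only one called, with 54.5 to 66.1 CPM with palmitate and 65.0 to 86.7 CPM in Control (-0.38, SE 0.07, adjusted p = 0.0009). The groups overlapped slightly for Fasn. The desaturases Scd1 (1.25 to 3.88 against 0.729 to 3.23 CPM, adjusted p = 0.914) and Scd2 (95.5 to 130.2 against 117 to 133 CPM, adjusted p = 0.927), which turn saturated into monounsaturated fatty acids, did not pass. Among 28 sterol synthesis and SREBP2 genes, 1 passed, the reductase Cyb5r3 (0.23, SE 0.05, adjusted p = 0.00196), and the median of the list was -0.12.

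Cholesterol efflux and membrane remodelling gave a few calls. Of 19 LXR targets, 3 were higher and none lower, with a median of 0.097. Called shares were 15.8% of LXR targets, 7.41% of the phospholipid list and 4.17% of the sphingolipid list, beside 2.57% of all genes. Lpcat3, which puts polyunsaturated chains into phospholipids, had 27.9 to 33.7 CPM with palmitate against 15.4 to 26.1 CPM in Control (0.67, SE 0.11, adjusted p = 1.70e-05). The cholesterol exporter Abca1 was slightly higher (912 ± 63.6 against 812 ± 34.5 CPM, log2 fold change 0.17, SE 0.04, adjusted p = 0.019), and so was the cholesteryl ester hydrolase Nceh1 (0.14, SE 0.04, adjusted p = 0.0332). The call of Abca1 was lost without WT Control library 2, WT palmitate library 1, or KO palmitate library 2 or 3 (0.14 to 0.16), and that of Nceh1 without any of 7 libraries (0.11 to 0.14). In the phospholipid list of 27, 2 were higher, Lpcat3 and the platelet-activating factor hydrolase Pla2g7 (0.25, SE 0.05, adjusted p = 0.00213). In the sphingolipid list of 24, which includes the ceramide synthases and serine palmitoyltransferase, 1 was higher, the sphingomyelin synthase Sgms1 (0.27, SE 0.07, adjusted p = 0.032), and its call was lost without WT Control 2, WT palmitate 1, KO Control 1 or 2, or KO palmitate 3 (0.21 to 0.27).

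Several of the most certain higher genes belonged to none of these lipid lists. Glul (glutamine synthetase) had 491 to 588 CPM with palmitate against 261 to 309 CPM in Control (0.93, SE 0.05, adjusted p = 1.70e-19). Scarb2, a lysosomal membrane protein, had 303 to 333 against 186 to 208 CPM (0.70, SE 0.04, adjusted p = 2.47e-17). Akr1b8, an aldo-keto reductase that clears reactive aldehydes, had 162 to 232 against 68.4 to 110.4 CPM (1.11, SE 0.09, adjusted p = 3.97e-14). For all of these the treated libraries lay above the Control libraries without overlap, as they did for the inhibitory receptor Cd300a (119 to 131 against 68.3 to 76.6 CPM, log2 fold change 0.74, SE 0.06, adjusted p = 4.70e-14). Lack of overlap was part of the rule that named these genes.

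Asb4 and Cav1 had large log2 fold changes from a low level. Asb4, a substrate adaptor of ubiquitin ligases, had 2.17 to 5.72 CPM with palmitate and 0.283 to 1.46 CPM in Control (2.12, SE 0.37, adjusted p = 0.000147). Cav1 (caveolin 1) had 2.60 to 8.58 against 0.343 to 1.99 CPM (1.76, SE 0.39, adjusted p = 0.00374). These values rest on few counts in Control. Groups without overlap were a condition for naming both genes, so the lack of overlap adds no support.

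The inflammatory list was split between directions. Of 41 tested members, 4 were higher and 3 lower (17.1%), beside 1.62% higher and 0.955% lower of all genes. The filter on low counts ran over all groups, LPS included. The 41 therefore include members hardly expressed here, such as Il23a, which was at 0 in all 12 libraries. Cxcl3, a chemokine that attracts neutrophils, had 9.60, 14 and 17.3 CPM with palmitate and 1.75, 2.78 and 5.71 CPM in Control, without overlap (2.24, SE 0.28, adjusted p = 1.73e-07). Acod1, the enzyme that makes itaconate, had 44.3 to 66.1 against 31.7 to 41.0 CPM (0.62, SE 0.12, adjusted p = 0.000726), also without overlap. Nfkbia, the inhibitor of NF-κB, rose with some overlap (72.1 ± 5.76 against 57.1 ± 7.05 CPM, SD, n = 6 each, log2 fold change 0.35, SE 0.07, adjusted p = 0.000444). Ptgs2 (cyclooxygenase 2), named after its values were seen, had 6.23 to 13.8 against 3.21 to 8.44 CPM (0.83, SE 0.23, adjusted p = 0.0368), and lost its call without any of 7 libraries (0.69 to 0.86).

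Chemokines of the other direction were Ccl4 and Ccl3, neighbours on chromosome 11 that attract monocytes. Ccl4 had 6.75, 9.88 and 11.5 CPM with palmitate against 16, 18.8 and 22.2 CPM in Control, so that it fell by 0.99 on the log2 scale (SE 0.12, adjusted p = 1.36e-07). Ccl3 had 24.7 to 31.3 against 37.9 to 44.7 CPM (-0.47, SE 0.10, adjusted p = 0.00215). No treated library reached a Control library for either gene. The third lower member was Nfkbiz, a nuclear regulator of NF-κB (-0.39, SE 0.10, adjusted p = 0.0207), whose call was lost without any of 6 libraries (-0.37 to -0.34).

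The cytokines most used as markers of activation were not called. Tnf had 16.4 to 24.9 CPM with palmitate and 17.7 to 23.1 CPM in Control (-0.05, SE 0.10, adjusted p = 0.901). Il1b had 0.185 to 2.68 against 0.281 to 1.99 CPM (adjusted p = 0.973). Il6 had 2 counts in 1 palmitate library and none in the others, and Nos2 had 1 and 2 counts in 2 Control libraries and none elsewhere. The last 3 genes were at or under the level of 3 counts in several or all of these libraries, where a difference was not detectable.

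**Figure D3:**
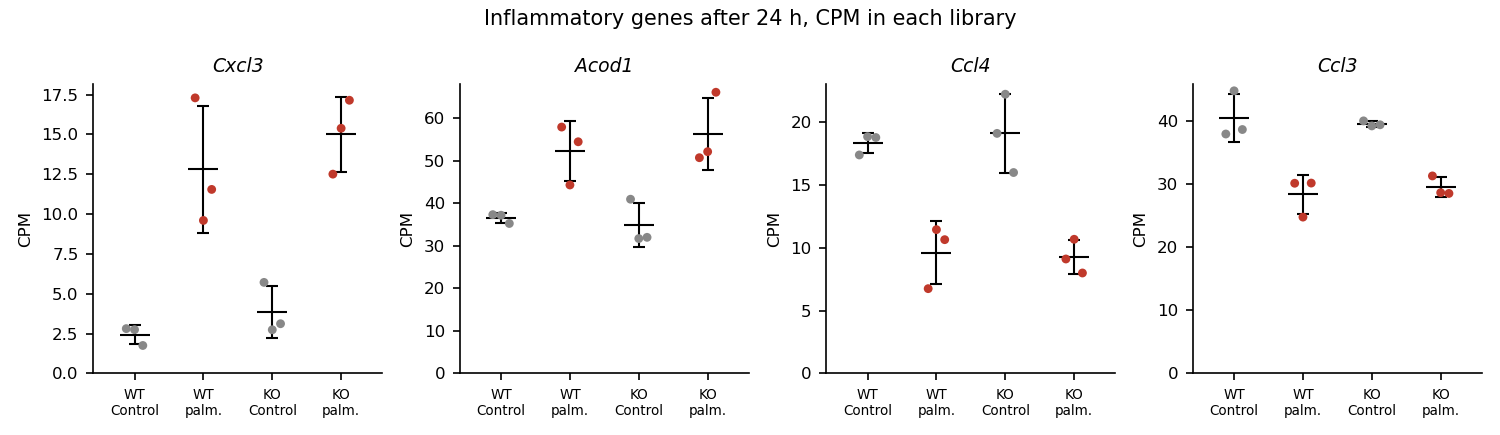
CPM (y axis, from 0) of 4 inflammatory genes in each library at 24 h, with Control in grey, palmitate in red, and mean and SD of each group of 3 as black bars. Cxcl3 and Acod1 sit higher with palmitate and Ccl4 and Ccl3 lower, under both genotype labels.

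Interferon-stimulated genes were lower rather than higher where they passed. Of 46 tested, 3 were lower (6.52%, beside 0.955% of all genes) and none higher. The filter on low counts ran over all groups, LPS included. Some members were thus tested that palmitate and Control libraries hardly express (Ifnb1 was at 0 in all 12). This limits the share above and the median drawn in the figure of the lists, and no sign count is given. The transcription factor Irf1 had 25.0 to 30.9 CPM with palmitate against 29.8 to 41.2 CPM in Control (-0.35, SE 0.08, adjusted p = 0.00868). Its call ended without WT Control library 3 (-0.30) or KO Control library 3 (-0.31). Ifit2 had 9.83 to 16.6 against 13.5 to 22.1 CPM (-0.63, SE 0.17, adjusted p = 0.0317), and lost its call without any of 7 libraries (-0.64 to -0.51). The interferon-inducible GTPase Iigp1 was close to the floor, with 0 to 4 counts per palmitate library and 1 to 12 per Control library, and its call (adjusted p = 0.049) was lost without any of 8 libraries. All 3 overlapped between the groups.

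Stress programmes gave isolated calls, where 2.57% of all genes were called. Of 36 tested targets of the integrated stress response and ATF4, 1 passed, the mitochondrial folate enzyme Mthfd2 (0.34, SE 0.09, adjusted p = 0.0196), and it did so only with WT Control library 2, WT palmitate library 1, KO Control library 3 and KO palmitate library 3 included (0.28 to 0.32 without one of them). Of 34 endoplasmic reticulum chaperones and unfolded protein response genes, 1 passed, the COPII subunit Sec24d (0.24, SE 0.07, adjusted p = 0.0465), which was lost without any of 9 libraries. Ddit3 (CHOP), the usual marker of unresolved stress, had 19.5 to 24.3 CPM with palmitate and 21.0 to 27.6 CPM in Control (-0.18, SE 0.10, adjusted p = 0.474), and Gdf15 had 18.2 to 26.8 against 19.8 to 25.0 CPM (adjusted p = 0.864). None of the 18 p53 targets passed (median -0.15).

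Of 30 NRF2 antioxidant targets, 3 were higher and none lower (10%, beside 2.57% of all genes), with a median of 0.086. These were the exporter Abcc4 (0.35, SE 0.07, adjusted p = 0.000913), glutathione reductase Gsr (0.19, SE 0.06, adjusted p = 0.0419) and transaldolase Taldo1 (0.15, SE 0.04, adjusted p = 0.047). Abcc4 kept its call whichever library was left out, whereas Gsr lost it without any of 9 libraries and Taldo1 without any of 10. Hmox1, the best known member, had 1578 to 2245 CPM with palmitate and 1769 to 2138 CPM in Control (0.02, SE 0.05, adjusted p = 0.955). Among 17 metallothionein and heat shock genes, 4 were higher and none lower (23.5%, beside 2.57% of all genes). They were the chaperone partners Bag3 (0.30, SE 0.07, adjusted p = 0.00346), Hsph1 (0.28, adjusted p = 0.0194) and Hspa8 (0.13, adjusted p = 0.0233) and, named after its values were seen, the metal-responsive factor Mtf1 (0.31, adjusted p = 0.0334). Of these, Bag3 alone kept its call without each library. The calls of Hsph1 (0.25 to 0.26) and Hspa8 (0.11 to 0.12) were each lost without any of 4 libraries and that of Mtf1 (0.26 to 0.32) without any of 9.

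Structural genes of mitochondria moved little beside the enzymes of fatty acid oxidation. None of 76 nuclear-encoded subunits of oxidative phosphorylation passed (median 0.046), and none of 33 genes of the TCA cycle and pyruvate entry (median 0.031) or 22 genes of cristae and inner membrane structure (median 0.028). Of 10 mitochondrially encoded genes tested, all had a log2 fold change above 0 and 1 passed, the ribosomal RNA mt-Rnr2 (0.16, SE 0.04, adjusted p = 0.0119), which was lost without WT palmitate library 1 (0.14) or KO palmitate library 3 (0.13). Mitochondrial genes held 9.20% to 10.9% of counts with palmitate and 8.55% to 9.34% in Control. Ghitm, an inner membrane protein of interest to the study, had 104 to 141 CPM with palmitate against 96.0 to 132 CPM in Control (0.09, SE 0.05, adjusted p = 0.501). The study chose 6 genes, Ghitm included and in part on these samples, as differing between KO and WT in every condition and bound by IRF5. They were not chosen for a palmitate response. Of these 6, 0 passed with palmitate at 24 h and 1 was called higher with palmitate at 2 h. In the list of glycolysis and HIF1 targets, 1 of 37 was higher, Ldha (0.23, SE 0.06, adjusted p = 0.0368, lost without any of 8 libraries), and 2 were lower, Ndrg1 (-0.50, SE 0.08, adjusted p = 1.18e-05) and hexokinase Hk2 (-0.27, SE 0.06, adjusted p = 0.00478). The calls were 8.11% of that list, beside 2.57% of all genes.

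**Figure D4:**
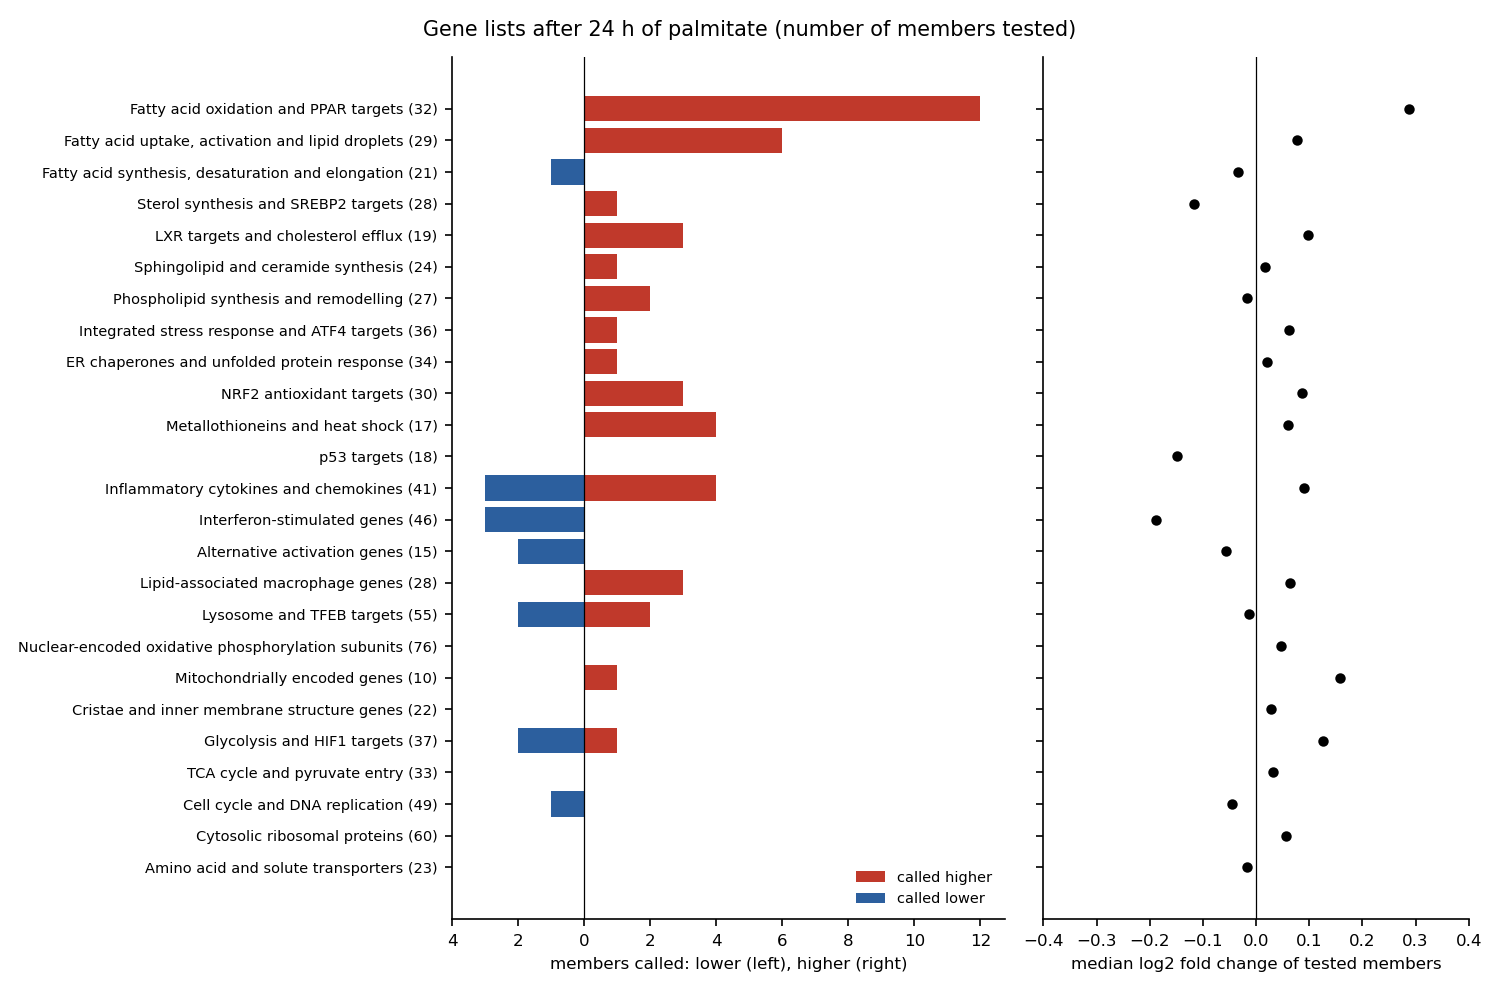
Left, the number of members of each gene list called lower (blue, to the left of 0) and higher (red, to the right) with palmitate at 24 h, with the number tested in brackets. Right, the median log2 fold change of the tested members. The list of fatty acid oxidation and PPAR targets has the most calls (12) and the highest median (0.29). Medians of the interferon and inflammatory lists include members that passed the filter through the LPS libraries.

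Lysosomal genes were called in both directions. Of 55 lysosome and TFEB targets, Scarb2 (above) and the protease Ctsl rose. Ctsl had 720 to 949 CPM with palmitate against 577 to 632 CPM in Control (0.39, SE 0.05, adjusted p = 4.04e-07). The nutrient-sensing GTPase Rragd fell (-0.47, SE 0.11, adjusted p = 0.00492). Of 28 genes known from lipid-associated macrophages, 3 were higher, namely Plin2, Cd36 and Ctsl, and none lower, with a median of 0.063. The called share was 10.7%, beside 2.57% of all genes.

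Several surface receptors were among the lower genes. Fcrls, an Fc receptor-like scavenger receptor, had 424, 494 and 585 CPM with palmitate and 615, 649 and 706 CPM in Control (-0.41, SE 0.05, adjusted p = 3.30e-07). The adhesion receptor Adgre5 (CD97) had 84.8 to 105 against 117 to 139 CPM (-0.36, SE 0.05, adjusted p = 2.37e-06), and the sialic acid receptor Cd33 had 7.44 to 10.1 against 12.4 to 17.9 CPM (-0.78, SE 0.14, adjusted p = 0.000132). Adgre5, Stab1 and Lpcat3 overlap a gene on the other strand (Ddx39, Nt5dc2 and Emg1), and so do Irf5 (Tnpo3), Ddit3 (Mars), Naa35 (Golm1) and Rcbtb2 (Rb1). Whether the counting used strand is not given in the sources used here, so the values of these genes are uncertain. Groups did not overlap for Fcrls, Adgre5 and Cd33, nor for the cytokine receptor Il17ra (-0.35, SE 0.06), the integrin Itgal (-0.28, SE 0.05), or the cytoskeletal proteins Lsp1 (-0.62, SE 0.11) and Iqgap2 (-0.23, SE 0.04), with adjusted p values from 0.000142 to 0.000804. The rule that named these genes required groups without overlap.

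Among 15 genes of alternative activation, 2 were lower and none higher, the β-glucan receptor Clec7a (211 to 253 against 236 to 312 CPM, log2 fold change -0.30, SE 0.06, adjusted p = 0.000772) and the scavenger receptor Stab1 (-0.23, SE 0.05, adjusted p = 0.00181). The calls were 13.3% of the list, beside 2.57% of all genes. The secreted scavenger protein Cd5l was lower too (315, 417 and 729 CPM against 509, 660.0 and 933 CPM, log2 fold change -0.56, SE 0.09, adjusted p = 3.73e-05), with overlap. Cmah, which hydroxylates sialic acid, had 2.22 to 4.07 against 6.56 to 11.4 CPM (-1.13, SE 0.24, adjusted p = 0.00237). Of 49 cell cycle genes the cyclin Ccnd2 alone was lower (0.872 to 3.63 against 3.43 to 7.45 CPM, adjusted p = 0.0368), a call lost without any of 9 libraries, and the mitochondrial carrier Sfxn2 (-0.75, SE 0.20, adjusted p = 0.0286) lost its call without any of 7. None of 60 ribosomal protein genes and none of 23 transporters of amino acids and other solutes passed.

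Actg2, a smooth muscle actin, was called lower from very few counts. It had 0, 0, 0, 0, 1 and 3 counts in the palmitate libraries and 2, 5, 11, 14, 24 and 35 counts in the Control libraries (adjusted p = 0.00494), so no fold is given, and it was not called without WT Control library 3 (adjusted p = 0.0815). Fibroblast and stromal markers moved with it. The summed level of the 12 markers was 2.11 to 18.5 CPM with palmitate and 4.97 to 159 CPM in Control, where WT library 3 and the 3 KO libraries held 51.2 to 159 CPM and the other 2 held 4.97 and 6.98 CPM. All 6 tested members had a negative log2 fold change (median -2.10) and none passed, and the defining markers Dcn and Lum were at 0 in all 12 libraries. Whether fewer stromal cells or less RNA per cell was present cannot be told apart in bulk samples, and the part of these cells in other results was not tested. Summed granulocyte precursor markers (152 to 262 CPM against 159 to 341 CPM) and dendritic cell markers (223 to 424 against 249 to 388 CPM) overlapped between treatments, with no member called of 8 tested in each. The summed B cell, adipocyte, T or NK cell and erythroid markers stayed at or below 15.5, 7.33, 4.59 and 1.20 CPM.

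The response was then taken apart by genotype label, in 2 comparisons that share no library. In libraries labelled WT, 99 genes were called (0.852%, 78 higher and 21 lower), and in those labelled KO 102 (0.877%, 74 higher and 28 lower). The 2 lists shared 55 genes in the same direction, which is 55.6% of the WT list and 53.9% of the KO list, with 48 of them higher and 7 lower. All 99 WT calls had the same sign in KO and all 102 KO calls the same sign in WT, beside 58.0% of all genes tested. The 78 genes higher in WT had a median log2 fold change of 0.49 there and 0.41 in KO, and the 74 genes higher in KO 0.53 there and 0.48 in WT. Plin2 had 209.8 ± 7.28 CPM in WT Control and 835 ± 23.8 CPM in WT palmitate (SD, n = 3 each), and 208 ± 7.01 and 845 ± 9.46 CPM in KO. Its log2 fold changes, 1.99 (SE 0.06) and 2.02 (SE 0.06), were closer than their errors, and so were those of Oxct1, -0.41 (SE 0.07) in WT and -0.46 (SE 0.07) in KO.

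The counts within a label leaned on single libraries. The WT count was 58, 57 and 51 without WT Control library 1, 2 and 3 and 65 without WT palmitate library 1, and the KO count was 48 and 65 without KO Control library 2 and 3 and 57 and 52 without KO palmitate library 1 and 3.

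A direct test of the difference between the labels, KO response minus WT response, called 0 of 11624 genes in edgeR and 0 in DESeq2, with 411 and 371 genes at an unadjusted p under 0.05. This count does not show that the responses were equal. The 5 genes with the smallest p were Appl1, Anapc4, Naa35, Tigar and Syt8 (lowest adjusted p 0.941, that of Appl1). Appl1, an adaptor of adiponectin and insulin signalling, had 40.5 to 48.0 CPM in WT Control and 51.2 to 52.4 CPM in WT palmitate, but 53.8 to 56.4 and 39.8 to 48.5 CPM in KO (difference -0.56, SE 0.13). Tigar, a phosphatase that slows glycolysis, went the other way, with 13 to 13.7 and 6.46 to 9.56 CPM in WT and 10.2 to 10.6 and 12.9 to 13.8 CPM in KO (difference 1.00, SE 0.27). Their groups did not overlap within either label, as was so for 15.0% of all genes in WT (7.66% higher and 7.34% lower) and 14.3% in KO (7.20% higher and 7.09% lower).

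The timing was read from the 2 h libraries, again with no library in common. At 2 h, 63 genes were called (0.542%, 27 higher and 36 lower), and the groups did not overlap for 0.662% of all genes. Of these, 19 were called in the same direction at 24 h, which is 30.2% of the 2 h list and 6.36% of the 24 h list. Angptl4 was already high at 2 h, with 20.4 ± 2.72 CPM after 2 h of palmitate and 2.10 ± 0.387 CPM in Control (SD, n = 6 each, log2 fold change 3.28, SE 0.18), and the 2 responses differed by 0.12 (SE 0.28, adjusted p = 0.944). Plin2 was part of the way there, at 520.4 ± 24.2 against 257.5 ± 18.2 CPM (1.02, SE 0.04), and Cpt1a at 206 ± 8.72 against 141 ± 5.95 CPM (0.55, SE 0.05). These were the 3 members of the fatty acid oxidation list called at 2 h, with 12 at 24 h.

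Testing the 24 h response against the 2 h response gave 149 genes that differed (1.28%), 112 with a higher (0.964%) and 37 with a lower (0.318%) log2 fold change at 24 h. Of the 32 tested fatty acid oxidation genes, 7 had a higher response at 24 h and none a lower one, and the median difference was 0.20. Plin2 gained 0.99 (SE 0.06, adjusted p = 8.50e-18), Glul 0.76 (SE 0.07, adjusted p = 2.87e-10), Ucp2 0.61 (SE 0.07, adjusted p = 7.63e-09) and Akr1b8 1.24 (SE 0.12, adjusted p = 3.2e-10). Glul, Ucp2 and Akr1b8 did not pass at 2 h, with log2 fold changes of 0.17, 0.14 and -0.13. On the lower side were Ccl4 (-0.98, SE 0.16, adjusted p = 8.32e-05), Oxct1 (-0.36, SE 0.07, adjusted p = 0.000843), Cd5l (-0.74, SE 0.13, adjusted p = 0.000423) and Sat1, the enzyme that breaks down polyamines (-0.43, SE 0.07, adjusted p = 0.000362). Sat1 had 151 to 192 CPM with palmitate and 197 to 220.0 CPM in Control at 24 h. Hk2 had log2 fold changes of -0.32 at 2 h and -0.27 at 24 h, and Nfkbia of 0.28 and 0.35.

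**Figure D5:**
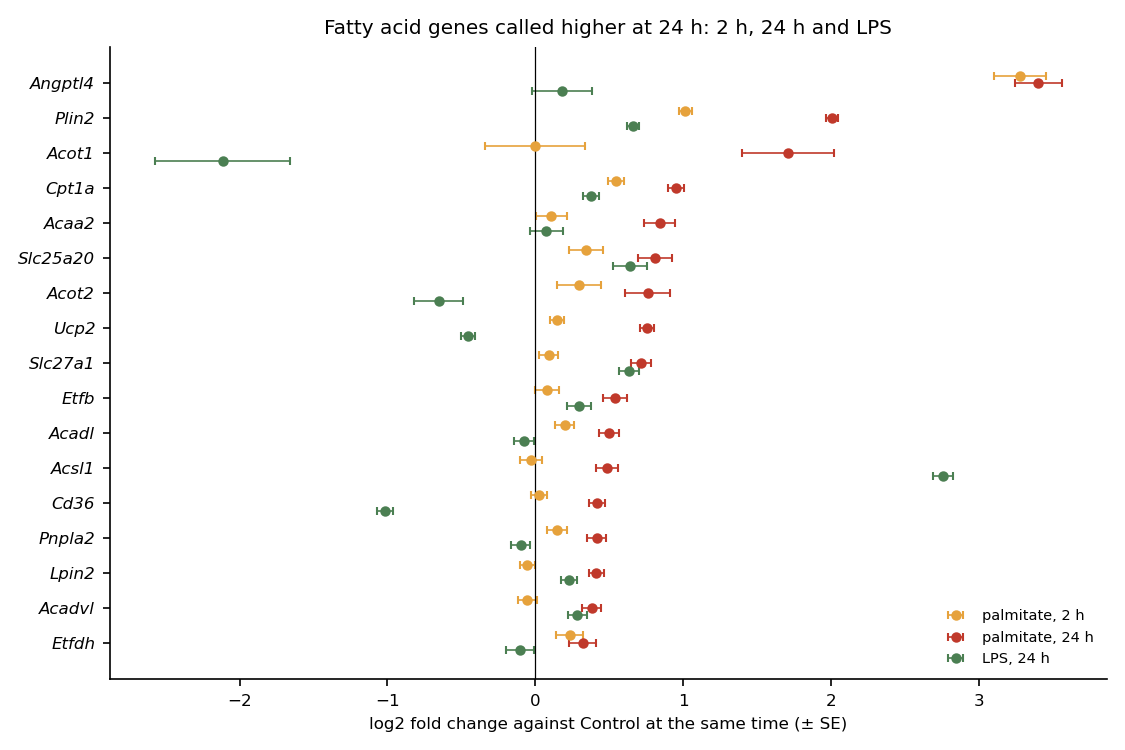
Log2 fold change (x axis, with SE as bars) of the 17 fatty acid genes called higher at 24 h, for palmitate at 2 h (orange), palmitate at 24 h (red) and LPS at 24 h (green), each against the Control of its time. The Angptl4 points for 2 h and 24 h lie side by side, those of the other genes lie further to the right at 24 h, and LPS moves Acsl1 far up and Acot1, Cd36, Acot2 and Ucp2 down.

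LPS, a bacterial ligand of Toll-like receptor 4, was the other treatment at 24 h. It shares its Control with palmitate, so the 2 treatments were compared directly. They differed in 6018 genes (51.8%), with 3067 higher (26.4%) and 2951 lower (25.4%) in palmitate. No count is given over the interferon and inflammatory lists here, since some of their members passed the filter only through the LPS libraries. Ccl5 had 6.70 to 11.9 CPM with palmitate and 1740.5 to 2055 CPM with LPS (-7.74, SE 0.08, adjusted p = 7.13e-52), and Ifit1 (-6.82), Gbp2 (-6.40) and the MHC class Ib gene H2-T22 (-3.80) differed in the same direction without overlap, as did 30.5% of all genes in either direction. Higher in palmitate were Igf1 (894.5 to 1002 against 275 to 307 CPM, log2 difference 1.74, SE 0.04), Rcbtb2 (2.11), the prostaglandin-degrading enzyme Hpgd (4.64) and the transferrin receptor Tfrc (2.31). Of these 8, Igf1 alone was called against Control (0.13, SE 0.04, adjusted p = 0.0285), a call lost without any of 6 libraries (0.12 to 0.13). Ccl5, not called here, was called higher than Control with all genes included (0.46, adjusted p = 0.0241), in DESeq2 (0.45, adjusted p = 0.0276) and without WT Control library 1, WT palmitate library 2 or KO Control library 2 (0.54 to 0.60), and Ifit1 was called lower with all genes included (-0.51, adjusted p = 0.0468).

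Cxcl3 and Acod1, which palmitate raised, were higher still with LPS. Cxcl3 had a log2 fold change against the shared Control of 2.24 with palmitate and 4.13 with LPS, and Acod1 0.62 and 4.10, and the direct differences were -1.89 (adjusted p = 3.82e-12) and -3.48 (adjusted p = 2.99e-33). Ccl4 was lower with palmitate (-0.99) and close to Control with LPS (-0.05), and the direct difference was -0.95 (SE 0.12, adjusted p = 2.81e-09). Among the 32 fatty acid oxidation genes, 20 were higher and 3 lower in palmitate than in LPS, with a median difference of 0.46. Plin2 differed by 1.34 (SE 0.04), Angptl4 by 3.22 (SE 0.15) and Cd36 by 1.44 (SE 0.06), and Acot1 by 3.83, all higher in palmitate. Slc27a1 (0.08, adjusted p = 0.294), Slc25a20 (0.17, adjusted p = 0.189) and Acadvl (0.098, adjusted p = 0.192) did not pass in the direct comparison, having log2 fold changes of 0.64 each for the first pair and 0.28 for Acadvl with LPS against Control. Acsl1 was lower in palmitate than in LPS, with a direct difference of -2.28 (adjusted p = 2.21e-33) and a log2 fold change of 2.76 with LPS against Control.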

How the data were processed

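RNA was measured by stranded total RNA-seq (SMARTer Pico kit, ribosomal cDNA depleted, paired reads) in 42 BMDM libraries, 14 groups of 3. The authors trimmed reads with fastp 0.19.11 and aligned them with STAR 2.7.3a, and deposited whole-number counts per gene. The submitters' processing notes list both mm10 and mm9, and the counter, the annotation release and any use of strand are not given in the sources used here. Values of overlapping or near-identical genes are therefore uncertain. The table held 37310 genes by Ensembl identifier, of which 32620 were matched to a symbol and a position. Positions and overlaps of genes came from GENCODE (GRCm38), and promoter sequences from RefSeq (GRCm38.p6). Total counts of the 12 libraries at 24 h were 3420759 to 6674765, and a gene under 3 counts in a library could not be followed there.

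Counts were fitted with the edgeR 4.0.16 quasi-likelihood test (R 4.3.3, limma 3.58.1), with TMM scaling, filterByExpr (11624 genes kept) and a design with 1 mean for each of the 14 groups, which gave 1 common estimate of the spread. Palmitate was contrasted with Control at 24 h as the average of the WT and KO differences, then within each label, between labels, against the 2 h response and against LPS at 24 h. A gene was called at a Benjamini-Hochberg adjusted p under 0.05. Columns carry no replicate numbers, so library numbers follow column order and pair nothing. On counts simulated for the main comparison over 11258 genes, 56%, 74%, 88% and 98% of genes changed by 1.3, 1.5, 2 and 4-fold were recovered, and 6.51% of calls were false. The changed genes were drawn from those averaging at least 1 CPM in Control at 24 h. All groups were otherwise given the Control 24 h means. These rates therefore do not cover genes of lower level or other differences between groups.

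Gene lists and members were chosen with earlier results of these data known. Genes were named by rule. In each direction these were the 10 called genes with the smallest adjusted p and the 5 with the largest change among genes averaging 1 CPM or more whose groups did not overlap, up to 3 called genes per list, and 17 genes of prior interest. Up to 2 genes per direction were named within each label, 5 for the difference between labels, and up to 4 per direction for each of the other comparisons. Alternatives were RLE size factors, all genes with a count, DESeq2 1.42.0 (whose adjusted p was not given for 2705 genes), the study's threshold (unadjusted p under 0.05 and absolute log2 fold change over 1), the libraries compared alone, and leaving out each library in turn. Omission of the 2 shallowest libraries was added after seeing the data. Summaries used pandas 2.3.3 and numpy 2.4.6, and figures matplotlib 3.10.9. A result on a withheld item is not reported here.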

Additional observations from a re-analysis of the deposited data

Results flagged for a closer look

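The palmitate response differed between 24 h and 2 h in 149 of the genes tested, by the test of the difference itself (edgeR quasi-likelihood, adjusted p under 0.05). No library is shared by the 2 time points. Among the named genes the response was higher at 24 h for Plin2 (lipid droplet coat) by 0.99 on the log2 scale, for Glul (glutamine synthetase) by 0.76, for Ucp2 (inner membrane carrier) by 0.61 and for Akr1b8 (aldo-keto reductase) by 1.24. It was lower at 24 h for Oxct1 (use of ketone bodies, -0.36), the chemokine Ccl4 (-0.98), Sat1 (breakdown of polyamines, -0.43) and the scavenger protein Cd5l (-0.74).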

How the results depend on the processing

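No paired analysis was possible because the columns of the count table carry no replicate numbers. The count of 299 for both genotypes stayed within 1.5 times under RLE size factors (281), all genes with a count (410), DESeq2 (364), the 12 libraries alone (406), each library left out (228 to 279) and the 2 shallowest omitted (204), and was 106 (26 higher, 80 lower) at the study's threshold. With all genes, WT gave 167, KO 182, the difference between labels 9 and that between times 309. With only the libraries compared, KO gave 163 and the difference between times 285. At the study's threshold the difference between labels gave 105 and palmitate against LPS 1651. Leaving out a library gave 51 to 95 for WT and 48 to 76 for KO. Of 62 called named genes, 43 kept their call under every alternative fit and left-out library, 19 lost it at least once and 0 changed sign. Of the named genes not called, Ccl5 gained a call under DESeq2, all genes and 3 left-out libraries, and Ifit1 under all genes. Genes that changed sign were not called. Without 1 library, Lyz2 ranged from -0.0526 to 0.00556, Scd1 from -0.00272 to 0.306, Scd2 from -0.074 to 0.0309, Hmox1 from -0.0184 to 0.0770, Tnf from -0.102 to 0.0119, Il6 from 0 to 1.59 and Il1b from -0.211 to 0.330 (log2 fold change), and Il1b was -0.0254 with the 2 shallowest libraries omitted. The cause was not tested. Depth limits genes near 3 counts, such as Il6, Nos2, Iigp1 and Actg2.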
